A study of Mus musculus with 12 samples.

Results

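Transcripts of the chemokine ligands Ccl2, Ccl3, Ccl4, Ccl6, Ccl9, Cxcl2, Cxcl12, Cxcl16 and Pf4 were followed in macrophages sorted from mouse bone marrow. They are the 9 of 10 listed ligand genes with values, among 18467 gene symbols measured, and Ccl24, a ligand of the receptor CCR3, was not analysed here. The genes were selected by symbol. RNA sequencing covered 12 libraries, 3 in each of 4 groups, from different mice. The general sort took cells carrying CD11b and F4/80, and the niche sort took cells carrying the combination of VCAM1, CD163 and CCR3, which the series links to the macrophages at the centre of erythroblastic islands. Each sort was made from normal marrow of healthy control mice and from metastatic marrow of mice carrying E0771, a mouse breast cancer cell line. The metastatic mice were female Albino B6 animals, 8 weeks old when the cells were injected into the caudal artery. The strain, sex and age of the healthy controls, the time from injection to harvest and the tumour load are not given in the sources used here. The marrow was flushed from femurs and tibias and freed of red cells by lysis, and sorting was restricted to viable singlets.

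Chemokines are small secreted proteins that bind G protein-coupled receptors on leukocytes and direct where those cells move. In marrow, CXCL12 acting on CXCR4 holds blood-forming cells and granulocytes in place, CXCR2 ligands draw neutrophils out into the blood, and CCL2 acting on CCR2 lets monocytes leave. Macrophages are a source of inflammatory CC chemokines, and the mouse ligands CCL6 and CCL9 are made at high levels by myeloid cells without stimulation.

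Library totals lay between 13687957 and 30332442 counts, and between 7689 and 12658 genes had at least 10 counts in a library. Levels are given as CPM, the counts relative to the scaled library total, and 3 counts in a library corresponded to between 0.109 and 0.242 CPM. The spread between libraries of a group was wide, with a common biological coefficient of variation of 1.30. Differences were tested with edgeR's quasi-likelihood test over 12882 genes, and a gene is called where its adjusted p-value was under 0.05. Of the 9 ligand genes, 8 passed the filter on low counts and were tested, and Pf4 did not. Vcam1, Cd163 and Ccr3, which encode the niche sorting antigens, were called higher in niche macrophages in both marrow states, and Itgam, which encodes CD11b, was called in neither. Adgre1, which encodes the general sorting antigen F4/80, was called higher in niche macrophages of normal marrow, at a log2 value of 1.96 (edgeR adjusted p = 0.00246), and not in metastatic marrow (1.18, edgeR adjusted p = 0.166). Of 9 macrophage marker genes, Aif1 was at 0 in every library of 3 groups, and none of the other 8 was at or under 3 counts throughout a group. Because these are bulk samples, fewer cells of a type and less RNA per cell cannot be told apart.

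Ccl9, Ccl6, Ccl3 and Ccl4 lie together on mouse chromosome 11, at chr11:83572917-83664683 of GRCm38.p6 in RefSeq, a stretch of 91.8 kb. Ccl9 (83572917 to 83578636) and Ccl6 (83587886 to 83593087) are neighbours on the minus strand, 9.2 kb apart. Ccl3 (83647843 to 83649378, minus strand) and Ccl4 (83648624 to 83664683, plus strand) have RefSeq spans that overlap. In the GENCODE gene annotation no gene overlaps either of them. Ccl2 (82035577 to 82037452) and Cxcl16 (70454389 to 70459984) are elsewhere on chromosome 11. Cxcl2 (90903899 to 90905938) and Pf4 (90772435 to 90773383) lie 130.5 kb apart on chromosome 5, and Cxcl12 (117168535 to 117181368) is on chromosome 6. Whether the authors counted by strand is not given in the sources used here, so reads from overlapping genes on opposite strands may not have been kept apart. Ccl2 and Cxcl16 also overlap annotated genes on the opposite strand, Gm17268 and Zmynd15, which were not analysed here.

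The promoters of Ccl6 and Ccl9 are shown because the 2 genes adjoin and were the only ligands of the list with over 3 counts in all 12 libraries. Each sequence is the 250 bases before the RefSeq start in GRCm38.p6, read 5′ to 3′ on the minus strand, at chr11:83593088-83593337 for Ccl6 and chr11:83578637-83578886 for Ccl9, with matches to CTTCCTGT in capitals.
Ccl6: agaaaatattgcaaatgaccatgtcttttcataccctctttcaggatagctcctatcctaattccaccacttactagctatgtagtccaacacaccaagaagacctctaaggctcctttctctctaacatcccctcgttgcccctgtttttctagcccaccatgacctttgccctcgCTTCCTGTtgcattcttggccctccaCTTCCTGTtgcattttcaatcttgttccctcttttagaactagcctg
Ccl9: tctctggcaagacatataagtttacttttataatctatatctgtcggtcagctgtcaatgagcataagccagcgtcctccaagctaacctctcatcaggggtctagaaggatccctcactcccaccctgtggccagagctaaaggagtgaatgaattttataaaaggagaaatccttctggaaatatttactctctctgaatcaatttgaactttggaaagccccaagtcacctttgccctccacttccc
The motif CTTCCTGT, whose reverse complement ACAGGAAG contains the GGAA core bound by ETS family factors such as PU.1, was picked after the Ccl6 sequence had been read. It was searched on both strands and occurs at 2 places in the Ccl6 promoter, starting 73 and 47 bases before the gene, and at 0 in that of Ccl9. Of 32851 promoters of the same length, 952 (2.90%) held a match and 25 (0.0761%) held 2 or more, and among the 6 ligand genes with a promoter in the RefSeq table only Ccl6 did. The longest run common to the 2 promoters was GCCCTCCACTTCC (reverse complement GGAAGTGGAGGGC), 13 bases long, starting 55 bases before Ccl6 and 14 bases before Ccl9. That run occurred in 5 (0.0152%) of the promoters on either strand. These matches describe the sequence and say nothing of which factors bind there.

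Among the ligands, only Ccl6 was called in any comparison. Its level was highest in general macrophages of normal marrow and lower in the other 3 groups. Ccl2 and Cxcl16 had higher group means in metastatic than in normal marrow and Cxcl12 lower ones in both populations, without a call by edgeR. Ccl9, Ccl3, Ccl4 and Cxcl2 had overlapping groups in every comparison.

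**Figure D1:**
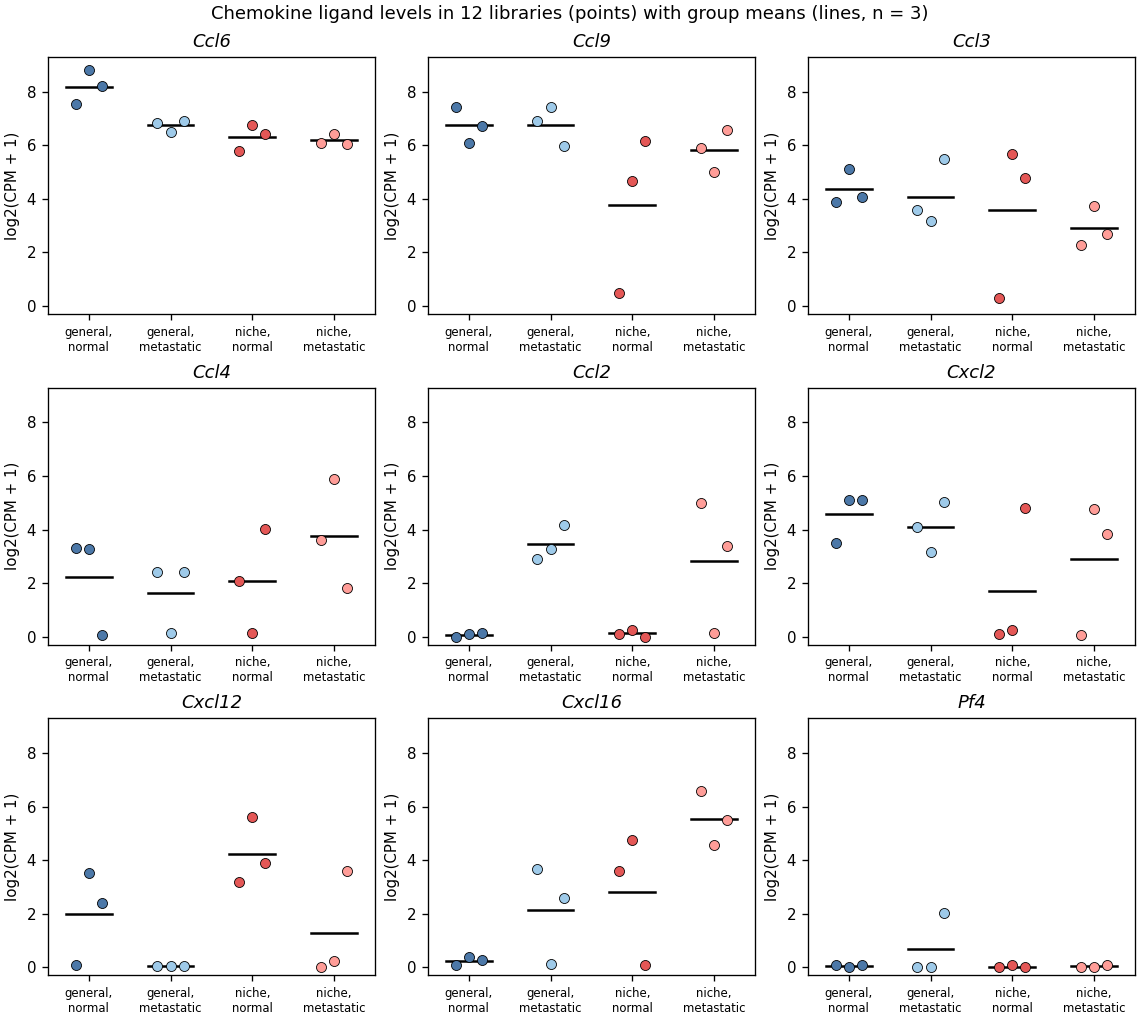
Level of 9 chemokine ligands, as log2(CPM + 1), in 12 libraries. Each point is 1 library, the short lines are group means (n = 3), and every panel has the same vertical axis. Ccl6 is above 5 on this scale in all 12 libraries, while Ccl2 is near 0 in the 6 libraries from normal marrow, and Pf4 is above 1 in 1 library.

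CCL6, CCL9 and CCL3 are ligands of CCR1, a receptor of monocytes and neutrophils. Ccl6 was at 185, 451 and 294 CPM in replicates 1 to 3 of general macrophages from normal marrow and at 114, 88.9 and 118 CPM in those from metastatic marrow. Niche macrophages had 54.4, 107 and 84.6 CPM in libraries A, B and C from normal marrow and 66.7, 84.2 and 65.6 CPM in replicates 1 to 3 from metastatic marrow. All 3 general libraries from normal marrow were above every other library, and within metastatic marrow the niche libraries were all below the general ones. The group means were 309.8 ± 134, 107 ± 15.9, 82.0 ± 26.4 and 72.2 ± 10.4 CPM in that order (SD, n = 3 each).

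In normal marrow Ccl6 was 3.78-fold lower in niche than in general macrophages, a log2 fold change of -1.92 ± 0.39 (SE; adjusted p = 0.00984 by edgeR). It was the 1 of 8 tested ligands called there, against 2.47% of all genes tested and 0.970% called lower. Without replicate 2 of general macrophages from normal marrow, the library with the highest level, the call was lost and the log2 fold change was -1.54 (edgeR adjusted p = 0.127), and it was called in the other 5 fits that left out 1 library. With limma-voom it was -1.81 (adjusted p = 0.130). In metastatic marrow the same difference was -0.57 ± 0.38 (SE; adjusted p = 0.856 by edgeR), so that it did not pass, in groups that did not overlap, as was found for 17.2% of all genes.

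Within general macrophages Ccl6 had a log2 fold change of -1.53 ± 0.39 (SE) in metastatic against normal marrow. Its unadjusted p of 0.000823 from edgeR was the 13th smallest of 12882, yet the adjusted p was 0.698, and only 2 genes (0.0155%) were called in that comparison. The groups did not overlap, as for 12.9% of all genes. DESeq2 gave a log2 fold change of -1.60 with an adjusted p of 0.00961, and it called 141 genes in this comparison. Within niche macrophages the change was -0.18 ± 0.38 (SE; adjusted p = 0.955 by edgeR), and its sign turned with library totals as the scaling (0.04) and with a filter of 10 counts in every library (0.01). The difference between the 2 metastasis effects was 1.35 ± 0.54 (SE; adjusted p = 0.584 by edgeR) and did not pass. The 2 comparisons of general macrophages from normal marrow share those 3 libraries, so the 2 values are not independent of each other.

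Other transcripts moved beside Ccl6. The summed level of 11 monocyte markers, Ccr2 among them, was 14018 to 14796 CPM in general against 5634 to 6693 CPM in niche macrophages from normal marrow, with 6 of 11 called lower and 0 higher. The sum of 14 neutrophil markers was 22121 to 23773 CPM against 11166 to 13083 CPM, with 7 of 14 called lower and 0 higher. In metastatic marrow the monocyte sums were 18452 to 20237 CPM in general against 8926 to 11398 CPM in niche macrophages. With metastasis in general macrophages 7 of the 11 monocyte genes had positive and 4 negative log2 fold changes, Ccr2 among the latter (-0.43), with 0 called. The neutrophil sums in metastatic marrow were 15650 to 25072 CPM in general and 11523 to 12404 CPM in niche macrophages. The range in general macrophages spans that of normal marrow around a lower mean (19833 against 22857 CPM). Sums of other lists were higher in niche libraries of normal marrow. For 12 T and NK cell markers they were 109 to 180 CPM in general against 190 to 469 CPM in niche macrophages. For 7 dendritic cell markers they were 13.2 to 29.3 against 38.1 to 139 CPM, and 0 genes were called in either list. The sums were 84.6 to 136 CPM in general against 975 to 1325 CPM in niche macrophages for 13 erythroid markers, with 4 called higher, and 314 to 490 against 1505 to 2541 CPM for 12 B and plasma cell markers, with 4 called higher. For 9 eosinophil markers, which include the sorting antigen Ccr3, they were 133 to 266 against 491 to 752 CPM, with only Ccr3 called higher. Ccr3 made up 549 of the mean niche sum of 656 CPM, but 11.4 of 199 CPM in the general sort. The higher eosinophil sum thus rested on the sorting antigen. Among the 8 tested genes of that list, 4 were positive and 4 negative, and the median log2 fold change was -0.90. The summed level of 9 macrophage markers in normal marrow was 19313 to 22416 CPM in general against 8224 to 10030 CPM in niche macrophages, although of the 8 tested genes 3 were called higher and 1 lower, with a median log2 fold change of 1.41. In general macrophages from metastatic marrow that sum was 11477 to 12494 CPM, with 0 called against normal marrow. No gene of the monocyte and neutrophil lists was at or under 3 counts throughout a group, and the part of these lists in the result was not tested. The opposite-strand transcript E230016K23Rik overlaps Ccl6 and had between 0 and 196 counts, with group means of 5.97, 1.66, 0 and 0.0626 CPM in the order above. Its reads cannot be told apart from those of Ccl6 if strand was not used, and its highest library reached 13.4 CPM, against at least 54.4 CPM of Ccl6 in every library.

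Ccl9, the neighbour of Ccl6, was called in no comparison. It was at 172, 67.1 and 104 CPM in general macrophages from normal marrow and at 119.6, 172 and 61.8 CPM in those from metastatic marrow. In niche macrophages it was at 0.404, 24.7 and 70.3 CPM in normal and 59.1, 31.4 and 94.3 CPM in metastatic marrow. Every pair of groups overlapped, and niche library A from normal marrow stood apart with 5 counts against 499 and 1406 in libraries B and C. The log2 fold change with metastasis in general macrophages was 0.04 ± 0.89 (SE; adjusted p = 1 by edgeR), where that of Ccl6 was -1.53, and it was -0.03 with RLE scaling. Between the populations Ccl9 differed by -1.84 ± 0.92 in normal marrow (SE; adjusted p = 0.279 by edgeR) and -0.93 ± 0.90 in metastatic marrow (SE; adjusted p = 1 by edgeR). The value in normal marrow was -1.25 without niche library A, -3.17 without niche library C and -3.12 with limma-voom, none of them called. The ratio of Ccl6 to Ccl9 CPM ranged widely within a group, from 1.07 to 6.72 in general macrophages of normal marrow and from 0.517 to 1.91 in those of metastatic marrow. In niche macrophages it ranged from 1.20 to 134.6 in normal marrow, the highest in library A with its 5 counts of Ccl9, and from 0.695 to 2.68 in metastatic marrow.

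Ccl3, which encodes the inflammatory chemokine MIP-1α, was at 13.8, 34.0 and 15.9 CPM in general macrophages from normal marrow and 10.9, 8.06 and 44.1 CPM in those from metastatic marrow. Niche macrophages had 0.242, 50.4 and 26.3 CPM in normal marrow, where library A held 3 counts, and 3.87, 12.2 and 5.45 CPM in metastatic marrow. Library A was the lowest of all 12, the groups overlapped in the 4 comparisons, and no difference was called. The largest of its log2 fold changes in size was -1.84 ± 1.48 with metastasis in niche macrophages (SE; adjusted p = 0.682 by edgeR), and it lay between -2.47 and -0.90 with 1 library left out, the latter without niche normal library B, and was -0.57 with limma-voom.

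Ccl4, which encodes the related chemokine MIP-1β, was between 0.0497 and 8.82 CPM in the 6 libraries of general macrophages. In niche macrophages it was at 3.23, 0.0990 and 15.3 CPM in normal and 11.4, 57.7 and 2.50 CPM in metastatic marrow. The highest value was 1326 counts in niche replicate 2 from metastatic marrow, where the other 2 libraries of the group had 226 and 68 counts. Niche against general macrophages gave a log2 fold change of 3.05 ± 2.25 in metastatic marrow (SE; adjusted p = 0.939 by edgeR), which did not pass and was 1.27 without niche replicate 2.

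CCL2 is the main attractant of CCR2-bearing monocytes. Ccl2 had 0, 1 and 2 counts in general macrophages and 1, 4 and 0 counts in niche macrophages from normal marrow, so that all 6 libraries of healthy mice were at or below 0.198 CPM. In metastatic marrow general macrophages had 176, 195 and 464 counts, or 6.40, 8.78 and 16.9 CPM. Niche macrophages had 607, 2 and 260 counts, or 30.5, 0.0870 and 9.57 CPM. In general macrophages the groups did not overlap, and in niche macrophages 1 of 3 metastatic libraries was at the level of normal marrow.

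From the summed counts, Ccl2 was 186-fold higher with metastasis in general macrophages (835 against 3 counts), with an exact 95% interval of 63.5 to 905. In niche macrophages it was 130.5-fold higher (869 against 5 counts), with an interval of 55.7 to 403. These intervals cover counting error only and not the differences between mice. With the spread between libraries in the test, the log2 fold changes were 7.48 ± 2.89 (SE; adjusted p = 0.944 by edgeR) and 7.08 ± 2.84 (SE; adjusted p = 0.381 by edgeR), and neither was called. The value in niche macrophages was 5.60 without niche metastatic replicate 1, which held 607 of the 869 counts, 8.28 without niche normal library B and 5.02 with limma-voom. That in general macrophages was 8.21 without general normal replicate 3. DESeq2 called both, with adjusted p-values of 0.0197 and 0.00644, among 141 and 954 of 12882 genes that it called in these comparisons. Between the populations the metastasis effects differed by -0.40 ± 2.84 (SE; adjusted p = 1 by edgeR), an estimate too wide to separate them.

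CXCL2 attracts neutrophils through CXCR2. Cxcl2 was at 10.4, 33.6 and 33.6 CPM in general macrophages from normal marrow and 16.3, 8.01 and 32.1 CPM in those from metastatic marrow. Of the 6 niche libraries, 3 had 26.7, 26.3 and 13.2 CPM and the other 3 had 1, 4 and 1 counts. The groups overlapped in every comparison, and its edgeR adjusted p-values were between 0.760 and 1.

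CXCL12 retains CXCR4-bearing cells in marrow and is made mostly by stromal cells. Cxcl12 had 1, 176 and 87 counts in general macrophages from normal marrow, or 0.0684, 10.4 and 4.33 CPM, and 1 count in each of the 3 libraries from metastatic marrow. Niche macrophages had 8.16, 48.1 and 13.7 CPM in normal marrow and 0, 0.174 and 11.1 CPM in metastatic marrow. The 3 niche libraries from normal marrow had 101, 972 and 274 counts, whereas in metastatic marrow 301 of the 305 niche counts came from replicate 3.

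Summed counts of Cxcl12 in general macrophages were 131.5-fold lower with metastasis (3 against 264 counts), with an exact 95% interval of 44.5 to 642 for counting error only. The fitted log2 fold change was -6.77 ± 2.83 (SE; adjusted p = 0.944 by edgeR). It was -5.62 without general normal replicate 2, -4.94 with limma-voom and -4.88 with the replicate block. The lowest library from normal marrow and all 3 from metastatic marrow had the same count of 1, so the groups were not separated by measured levels. Niche against general macrophages in metastatic marrow gave 6.38 ± 2.78 (SE; edgeR adjusted p = 0.544, and 0.0352 by DESeq2), a value that was 1.05 without niche replicate 3, 3.18 with limma-voom and 3.00 with the replicate block. In normal marrow the difference was 2.24 ± 2.29 (SE; adjusted p = 0.686 by edgeR), from 1.15 without niche library B to 3.41 without general replicate 2, and 3.49 with limma-voom. With metastasis in niche macrophages it was -2.63 ± 2.33 (SE; adjusted p = 0.737 by edgeR), from -7.96 without niche metastatic replicate 3 to -1.55 without niche normal library B, and -5.26 with limma-voom. Beside these, the summed level of 13 other stromal and endothelial markers was 108 to 171 CPM in general macrophages from normal and 107 to 133 CPM in those from metastatic marrow. It was 248 to 272 CPM in niche macrophages from normal and 121 to 201 CPM in those from metastatic marrow. Between the populations of normal marrow 3 of the 6 tested markers had positive and 3 negative log2 fold changes. Their median was -0.23, and 1 was called higher. With metastasis the median was 2.04 in general and 1.92 in niche macrophages. Of these 13 genes, 5 and 4 were at or under 3 counts in every library of general macrophages from normal and metastatic marrow, and 5 and 1 in niche macrophages. Among them Lepr, a defining marker of CXCL12-producing stroma, was at 0 throughout 3 groups but not in niche macrophages from metastatic marrow, and Cdh5, an endothelial marker, was at or under 3 counts in all 4. Their part in the result was not tested.

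CXCL16 is made as a membrane-anchored chemokine that binds CXCR6 and, on macrophages, takes up oxidised lipoprotein. Cxcl16 had 1, 5 and 4 counts in general macrophages from normal marrow and 319, 2 and 138 counts in those from metastatic marrow, or 11.6, 0.0900 and 5.03 CPM. Niche macrophages had 11.1 and 25.9 CPM in libraries A and B and 1 count in library C in normal and 96.0, 22.5 and 44.1 CPM in metastatic marrow. The niche libraries from metastatic marrow were all above the general libraries of the same marrow, and no library of general macrophages from normal marrow passed 5 counts.

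In normal marrow, summed Cxcl16 counts were 65.0-fold higher in niche than in general macrophages (662 against 10 counts), with an exact 95% interval of 35.1 to 136 for counting error only. The fitted log2 fold change was 5.99 ± 2.03 (SE; edgeR adjusted p = 0.1504, and 0.00132 by DESeq2). In metastatic marrow it was 3.28 ± 1.77 (SE; adjusted p = 0.665 by edgeR). With metastasis the change was 4.84 ± 1.93 in general macrophages (SE; adjusted p = 0.944 by edgeR), or 30.7-fold from summed counts with an interval of 16.6 to 64.5. It was 2.13 ± 1.69 in niche macrophages (SE; adjusted p = 0.672 by edgeR). With 1 library left out, the 4 values for Cxcl16 ranged from 4.83 (without niche library B) to 6.58 (without niche library C) and from 2.57 (without niche replicate 1) to 4.399 (without general replicate 1) between populations, in normal and metastatic marrow. With metastasis they ranged from 3.72 (without general metastatic replicate 1) to 5.42 in general macrophages and from 1.42 (without niche metastatic replicate 1) to 3.29 (without niche normal library B) in niche macrophages. In the same order limma-voom gave 3.94, 4.18, 3.58 and 3.81.

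Cell type markers also differed in level between normal and metastatic marrow, beside Ccl2, Cxcl12 and Cxcl16, although 0 genes of these lists were called with metastasis in either population. In niche macrophages the summed level of 18 erythroblastic island macrophage genes, among them the sorting antigens Vcam1 and Cd163, was 10301 to 12642 CPM in normal and 4349 to 7943 CPM in metastatic marrow. The 9 macrophage markers summed to 8224 to 10030 against 5419 to 6813 CPM, and the eosinophil markers to 491 to 752 against 125 to 403 CPM. Most of the eosinophil sum was the sorting antigen Ccr3, at 377 to 672 against 117 to 315 CPM. Of the 8 tested eosinophil genes 4 had positive and 4 negative log2 fold changes, with a median of 0.55. The monocyte sums given above were higher in metastatic marrow in both populations, but not all genes of the list were. In niche macrophages 5 of the 11 had positive and 6 negative log2 fold changes, with a median of -0.09. Mean Ccr2 was lower with metastasis in both populations, from 1566 to 1161 CPM in general and from 263 to 146 CPM in niche macrophages. The erythroid sum in general macrophages was 84.6 to 136 CPM in normal and 145 to 308 CPM in metastatic marrow. Each pair of summed ranges in this paragraph was without overlap, and the part of these lists in the ligand values was not tested.

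PF4, or CXCL4, is stored in platelets and megakaryocytes. Pf4 had 84 counts (3.06 CPM) in replicate 3 of general macrophages from metastatic marrow and from 0 to 2 counts in each of the other 11 libraries, and it did not pass the filter on low counts. In the same library the summed level of 12 other megakaryocyte and platelet markers was 132 CPM, against 64.8 and 55.8 CPM in the other 2 libraries of the group. Across general macrophages from normal marrow, where Pf4 had at most 1 count, that sum was 89.7 to 229 CPM. Gp1bb, Gp9 and Tubb1 were at 0 in every library of the 3 groups other than general macrophages from metastatic marrow. Their part in the Pf4 value was not tested.

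**Figure D2:**
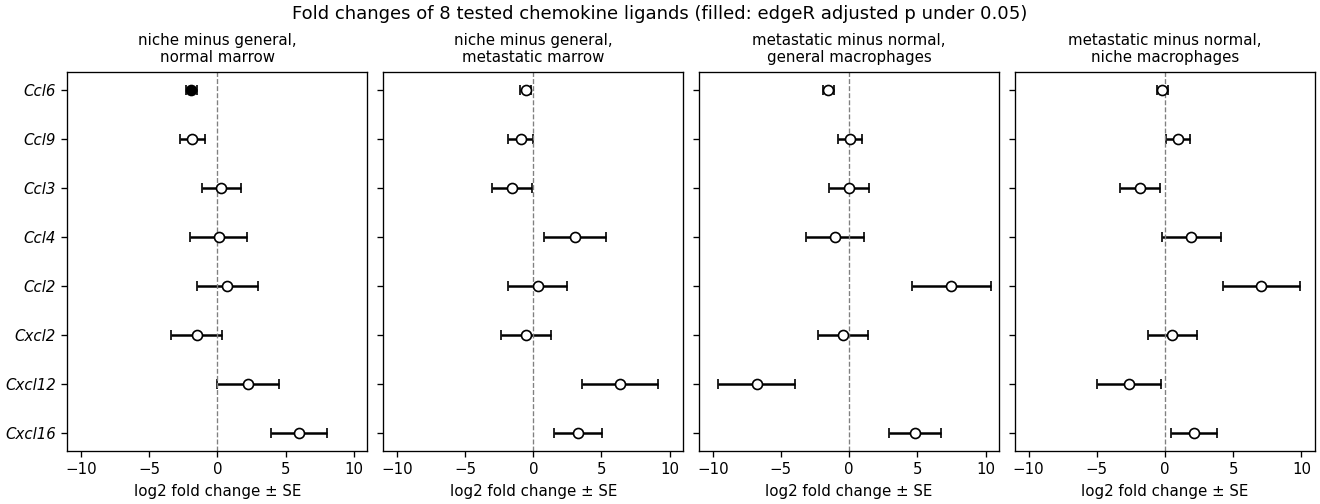
Log2 fold changes of the 8 tested ligands with their standard errors in 4 comparisons (12 libraries in 1 edgeR fit, 3 per group). Filled points passed an adjusted p of 0.05: only Ccl6 in niche against general macrophages of normal marrow did, at -1.92, while Ccl2, Cxcl12 and Cxcl16 had values of up to 7.48 in size with standard errors of 1.69 to 2.89.

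Counted over the list, 1 of 8 tested ligands was called between the populations in normal marrow, 0 of 8 in metastatic marrow (0.831% of all genes), 0 of 8 with metastasis in general macrophages and 0 of 8 with metastasis in niche macrophages (0.00776% of all genes). The difference of the metastasis effects was called for 0 ligands and 0 genes. An unadjusted edgeR p under 0.05 was found for 2, 1, 4, 1 and 1 of the 8 ligands in these 5 tests, where 19.0%, 8.60%, 5.12%, 12.7% and 7.89% of all genes had one. DESeq2 called 2, 1, 2 and 1 ligands in the 4 comparisons and 0 in the difference. It called 1825, 480, 141, 954 and 410 of the 12882 genes, where edgeR called 318, 107, 2, 1 and 0.

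Groups did not overlap for 1 of 8 ligands between populations in normal marrow (18.8% of all genes), for 2 of 8 in metastatic marrow (17.2%), for 3 of 8 with metastasis in general macrophages (12.9%) and for 0 of 8 in niche macrophages (12.7%). Between populations these were Ccl6 in normal marrow, lower as were 8.78% of all genes, and in metastatic marrow Ccl6, lower (8.85%), and Cxcl16, higher (8.34%). With metastasis they were Ccl2, higher (7.27%), and Ccl6 and Cxcl12, lower (5.64%). For Cxcl12 the order in CPM came from library totals alone, with 1 count on both sides, so that 2 of the 3 were separated by measured levels. The median log2 fold change of the ligands was 0.18 between populations in normal and -0.09 in metastatic marrow, where that of all genes was 0.19 and 0.04. With metastasis it was -0.24 in general and 0.75 in niche macrophages, against -0.01 and -0.17 for all genes. Library totals as the scaling moved the median of all genes to 0.29 for the populations in metastatic marrow and to 0.06 for metastasis in niche macrophages.

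Levels of different ligands were compared per kilobase of the longest coding transcript. Ccl6 had the highest group mean per kilobase in all 4 groups, at 215 ± 93.0 and 74.4 ± 11.04 CPM per kb in general macrophages of normal and metastatic marrow and 56.9 ± 18.4 and 50.1 ± 7.24 CPM per kb in niche macrophages (SD, n = 3 each). In general macrophages Ccl9 came next, at 38.0 ± 17.8 and 39.2 ± 18.3 CPM per kb (SD, n = 3 each), below every value of Ccl6. Ccl9 and Ccl3 were neighbours in that order with overlapping ranges.

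In niche macrophages the order behind Ccl6 differed. Ccl3 followed in normal marrow, at 33.5 ± 32.8 CPM per kb, and Ccl4 in metastatic marrow, at 36.2 ± 44.9 CPM per kb (SD, n = 3 each), both with ranges that reached into that of Ccl6. Cxcl16 was at 20.1 ± 14.01 and Ccl2 at 16.5 ± 19.2 CPM per kb in niche macrophages of metastatic marrow (SD, n = 3 each), behind Ccl9 in the order. Among all neighbours in the 4 orders, the ranges were apart only for Ccl6 and Ccl9 in the 2 general groups and for Cxcl12 and Ccl2 in niche macrophages of normal marrow. Cxcl12, whose longest coding transcript has 5627 bases, reached at most 4.15 ± 3.85 CPM per kb in a group (SD, n = 3).

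Together the 9 genes made up between 55.5% and 96.0% of the summed level per kilobase of the 20 chemokine ligand genes in the table. Ccl6 was the leading ligand in 11 of 12 libraries, with 23.5% to 68.4% of that sum. In niche replicate 2 from metastatic marrow Ccl4 led with 43.1%. The share of Ccl6 was 49.8%, 67.3% and 68.4% in general macrophages from normal marrow and at most 45.7% in every other library. Library A of niche macrophages from normal marrow, with the smallest total, had the lowest sum, 88.0 CPM per kb, and there Ccl25 followed Ccl6 with 32.1%.

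**Figure D3:**
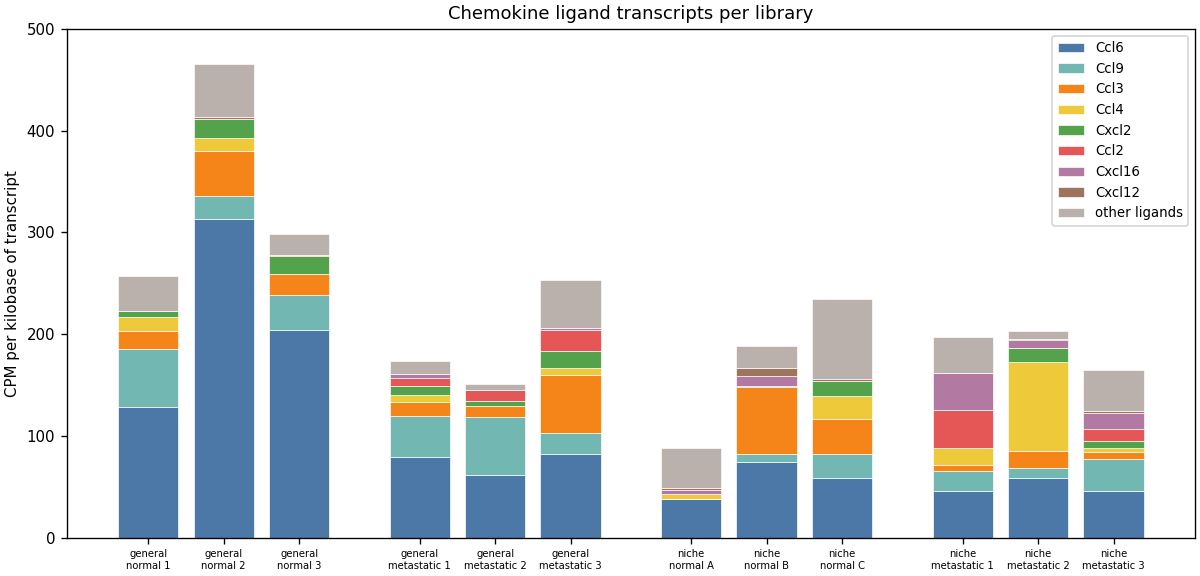
Chemokine ligand transcripts in each of 12 libraries, in CPM per kilobase of transcript, stacked by gene. Grey holds Pf4 and the remaining ligand genes. The sum is highest in replicate 2 of general macrophages from normal marrow, at 465 CPM per kb, where Ccl6 (dark blue) makes up 67.3%, and Ccl4 (yellow) is the largest segment only in niche replicate 2 from metastatic marrow.

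Single libraries either held a ligand at 40 counts or more or had at most 5 counts of it. Of the 108 values (9 ligands in 12 libraries), 37 were at or under 5 counts, 71 at or over 40 counts and 0 between, where 5.68% of all values of tested genes lay from 6 to 39 counts. The bounds were set around the gap after the values had been seen. The share at or under 5 counts was 34.3% for the 9 ligands and 27.1% (26 of 96 values) for the 8 tested ones, which leaves out Pf4. It was 23.4% for all tested genes and 13.1% for tested genes in the range of mean CPM of the tested ligands. Ccl6 had 673 counts or more in every library, and apart from Ccl6 and Pf4 each ligand had at least 1 library at or under 5 counts and others at 40 counts or more.

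**Figure D4:**
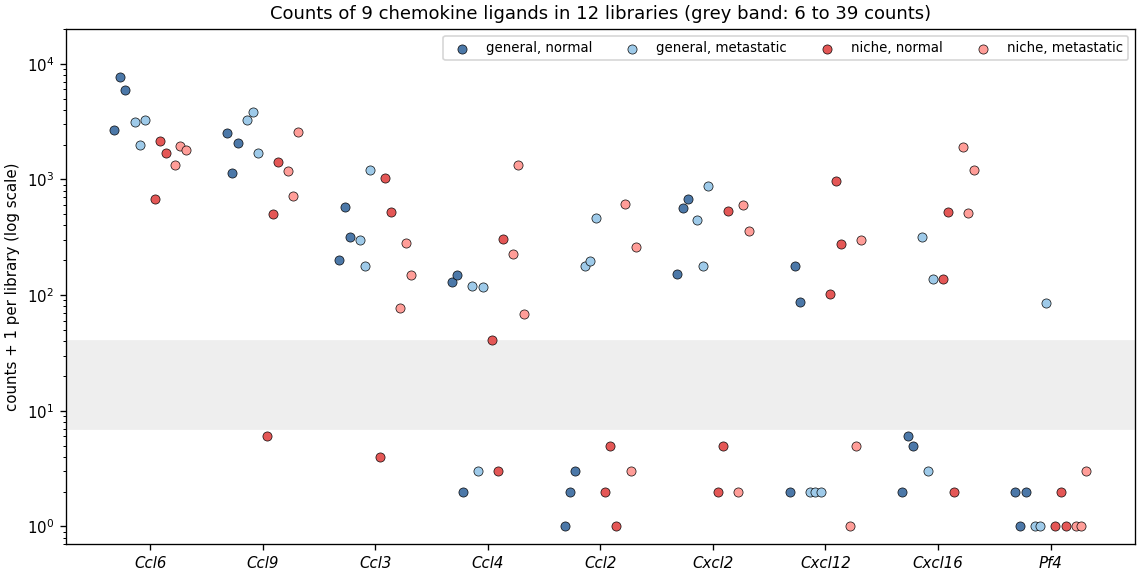
Counts of 9 chemokine ligands in 12 libraries, plotted as counts + 1 on a log axis, coloured by group. The grey band marks 6 to 39 counts, which holds 0 of the 108 values, and the lowest point above it is Ccl4 at 40 counts in niche library A from normal marrow.

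The other ligands gave no call. Of 28 other chemokine ligand genes listed, 11 were in the table and 4 were tested. The smallest p-values belonged to Cxcl9 and Cxcl10, which encode interferon-induced ligands of CXCR3. Between the populations of normal marrow Cxcl9 had a log2 fold change of 9.34 ± 4.13, higher in niche macrophages (SE; adjusted p = 0.243 by edgeR), which rested on library C: niche libraries A, B and C had 1, 0 and 915 counts and the general libraries 0, 0 and 1. Cxcl10 had one of 7.98 ± 3.51 with metastasis in niche macrophages (SE; adjusted p = 0.381 by edgeR), from 0.0167 ± 0.0289 to 5.95 ± 5.97 CPM (SD, n = 3 each). Its counts there were 0, 0 and 1 in normal and 239, 2 and 156 in metastatic marrow.

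Of 23 chemokine receptor genes listed, 19 were in the table and 12 were tested. Niche macrophages had 1 called higher and 1 called lower in normal marrow, and 1 higher and 2 lower in metastatic marrow, and 0 were called with metastasis in either population. Ccr2, the receptor of CCL2 and a gene of the monocyte list, averaged 1566 ± 126 CPM in general against 263 ± 67.2 CPM in niche macrophages of normal marrow (SD, n = 3 each), and its log2 fold change was -2.57 ± 0.32 (SE; adjusted p = 7.76e-05 by edgeR). In metastatic marrow it fell by 2.99 on the log2 scale between the populations (edgeR adjusted p = 2.14e-05). Ccr3, the eotaxin receptor and one of the sorting antigens, was higher in niche macrophages by 5.59 and 3.54 on the log2 scale (edgeR adjusted p = 3.48e-07 and 3.71e-05). Its difference follows the sort and is no independent result.

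Receptors of the other ligands were called less uniformly. Cxcr2, the receptor of CXCL2 and a gene of the neutrophil list, was lower in niche macrophages of metastatic marrow by a log2 fold change of -1.23 ± 0.28 (SE; adjusted p = 0.0361 by edgeR). In normal marrow its value was -0.91 ± 0.27 (SE; adjusted p = 0.0956 by edgeR). Ccr1, the receptor shared by CCL6, CCL9 and CCL3, had -1.03 ± 0.45 and -1.02 ± 0.45 in the 2 marrow states (SE; edgeR adjusted p = 0.241 and 0.547), and -0.02 and -0.01 with metastasis in general and niche macrophages.

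Cxcr4, the receptor of CXCL12, was between 343 and 880 CPM in all 12 libraries, and its log2 fold changes between groups were from -0.64 to 0.10 without a call. Cxcr6, the receptor of CXCL16, had group means of 4.204 to 11.7 CPM, each with an SD near or above the mean. With metastasis the smallest p-values of the list belonged to Cx3cr1 (-4.28) and Cxcr2 (-0.81) in general macrophages, both with an edgeR adjusted p of 0.944, and to Cxcr2 (-1.14) and Ccr3 (-1.46) in niche macrophages (edgeR adjusted p = 0.190 and 0.208), on the log2 scale.

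Genes of chemokine processing and signalling were tested for 20 of 20 listed. In normal marrow 1 was called higher and 2 lower in niche macrophages, and in metastatic marrow 1 higher and 1 lower, with 0 called with metastasis. Mmp9, a neutrophil gelatinase that cleaves several chemokines, was lower in niche macrophages, with log2 values of -1.17 ± 0.22 and -1.50 ± 0.22 (SE; edgeR adjusted p = 0.00580 and 0.000983). Rgs1, which shortens G protein signalling after chemokine receptors, was higher by 2.53 ± 0.55 and 2.76 ± 0.55 (SE; edgeR adjusted p = 0.0151 and 0.0157). Gnai2, the G protein subunit through which these receptors signal, was lower in normal marrow, at -0.92 ± 0.23 (SE; adjusted p = 0.0346 by edgeR). With metastasis the smallest p-values belonged to Arrb1 (-0.91) and Sdc4 (3.78) in general macrophages and to Mmp9 (-0.69) and Rgs18 (-1.14) in niche macrophages, on the log2 scale, with edgeR adjusted p-values of 0.944 and 0.381.

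Many inflammatory chemokine genes are transcribed under NF-kB, a factor activated by microbial and cytokine signals, and some respond within minutes together with immediate early genes. Of 18 NF-kB target genes, all tested, 0 were called in the 5 tests, and between 0 and 3 of them had an unadjusted edgeR p under 0.05. The 2 smallest p-values between the populations belonged to Sod2, a mitochondrial superoxide dismutase, and Il1b in normal marrow, and to Tnfaip3, an inhibitor of NF-kB, and Il1b in metastatic marrow. Sod2 had a log2 fold change of 1.71 ± 0.49 (SE; adjusted p = 0.0791 by edgeR) and Tnfaip3 one of 1.57 ± 0.65 (SE; edgeR adjusted p = 0.523). Il1b, for interleukin 1β, had -2.63 ± 0.91 and -1.97 ± 0.89 (SE; edgeR adjusted p = 0.163 and 0.557). With metastasis the smallest belonged to Ptgs2 (-2.73) and Il1a (-6.82) in general macrophages and to Nfkb1 (-1.43) and Zc3h12a (6.93) in niche macrophages, on the log2 scale, with edgeR adjusted p-values of 0.944 and 0.381.

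Of 19 immediate early genes, all tested, 1 was called. Fosb, an AP-1 subunit, averaged 128 ± 37.6 CPM in general against 449 ± 264 CPM in niche macrophages of metastatic marrow (SD, n = 3 each), and its log2 fold change was 1.81 ± 0.42 (SE; adjusted p = 0.0419 by edgeR). With metastasis in niche macrophages Fosb had 1.78 ± 0.41 and Egr1 4.297 ± 1.15 (SE), and neither passed (edgeR adjusted p = 0.1598 and 0.249). In general macrophages Jun had 0.95 ± 0.40 and Hspa1a 5.41 ± 2.35 with metastasis (SE; edgeR adjusted p = 0.944 for both), and between the populations of normal marrow Egr1 had -3.70 ± 1.12 and Hspa1a 7.40 ± 2.56 (SE; edgeR adjusted p = 0.0977 and 0.161).

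For each ligand with a mean of at least 10 CPM, the 2 most similar of 8124 other genes over the 12 libraries were found by the root mean square difference of centred log2(CPM + 1). The pattern of Ccl6 was nearest to that of Lyz2, which encodes the lysozyme of macrophages and neutrophils, at a difference of 0.41, and of Nadk, for NAD kinase, also at 0.41, where the median over genes was 1.45 and the variation of Ccl6 itself 0.87. Ccl9 was nearest to Pdik1l (0.55) and Ssu72 (0.56). Ccl3 was nearest to Vps35l (0.67) and Knop1 (0.70), and Cxcl2 to Egln1 (0.64) and Adal (0.65). Cxcl16, which itself varied by 2.31 and for which the median over genes was 2.52, was nearest to Add2 (1.04) and Cttnbp2nl (1.14). All 12 points share library depth and scaling, so these are descriptions.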

How the data were processed

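RNA was sequenced from 12 libraries of sorted macrophages, and the authors deposited 1 table of expected counts for 18467 gene symbols, not normalized (73.9% of values were whole). The submitters' processing notes name Partek, STAR 2.7.3a, DESeq2 1.40.2, R 4.3.1 and mm10, without roles. The counting program, annotation and strandedness are not given in the sources used here. Sample titles call both sorts general macrophages, so populations were assigned by sorting antigens. Columns of niche macrophages from normal marrow carry other replicate numbers than the titles and are called A, B and C.

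Expected counts were rounded and tested in edgeR 4.0.16 (R 4.3.3) after filterByExpr and TMM scaling, with quasi-likelihood tests in 1 fit of 4 group means over all 12 libraries and Benjamini-Hochberg adjustment over 12882 genes. CPM is relative to the scaled library total. SEs were computed from the F statistic. Intervals and floors of 3 counts cover counting error only. The procedure was tested on simulated counts. No 2 libraries of a group agreed within sampling noise.

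The ligands and all gene lists were chosen with earlier results of these data known. All ligands are named. Of each pathway list, up to 4 called genes in order of p are named, or some of the 2 with the smallest p where none was called. The receptors of the ligands, and Ccl25 and Ccl17, were added after their values were seen. The alternatives were RLE scaling, library totals, no filter, a minimum of 10 counts throughout, limma-voom (limma 3.58.1) with quality weights, DESeq2 1.42.0, only the libraries compared, a replicate block, and leaving out each library.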

Additional observations from a re-analysis of the deposited data

How the results depend on the processing

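Of 247 log2 fold changes of single ligands under alternatives other than leaving out 1 library in turn, 227 kept their direction and their side of the threshold, 1 lost its call, 5 gained one and 14 changed sign. The 1 lost was Ccl6 between populations in normal marrow with limma-voom (-1.81), and the 5 gained all came from DESeq2. Those that changed sign were uncalled: between populations in normal marrow Ccl3 with limma-voom (-1.01) and Ccl4 with only the libraries compared (-0.0192), and in metastatic marrow Ccl2 with limma-voom (-1.62); with metastasis in general macrophages Ccl9 with RLE scaling (-0.0312) and DESeq2 (-0.0312), and Ccl3 with library totals (0.11), no filter (5.18e-05) and only the libraries compared (0.00835); in niche macrophages Ccl6 with library totals (0.0443) and the filter of 10 counts (0.0107); and in the difference of effects Cxcl12 (-0.31) and Cxcl16 (0.24) with limma-voom. All 72 group levels recomputed with other scalings moved by less than 1 SD.

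Genes called between populations in normal marrow numbered 318, and 1825 with DESeq2, 186 with limma-voom, 163 with only the libraries compared and 176 to 402 with 1 library left out. Ligands called there were 1, and 2 with DESeq2, 0 with limma-voom and 0 to 1 with 1 library left out. In metastatic marrow the 107 genes became 480 with DESeq2, 178 with limma-voom and 66 to 83 with 1 library left out, and the ligands 1 with DESeq2. With metastasis in general macrophages the 2 genes became 0 with library totals, 5 without a filter, 141 with DESeq2, 23 with limma-voom and 0 to 0 with 1 library left out, and the ligands 2 with DESeq2. In niche macrophages the 1 gene became 0 with RLE scaling, 0 with library totals, 0 with only the libraries compared, 3 without a filter, 3 with the filter of 10 counts, 954 with DESeq2, 11 with limma-voom and 0 to 66 with 1 library left out, and the ligands 1 with DESeq2. In the difference of effects the 0 genes became 410 with DESeq2 and 0 to 16 with 1 library left out. The cause was not tested.

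With 1 library left out, 22 of 288 ligand values changed sign and 1, Ccl6 without replicate 2 of general macrophages from normal marrow, lost its call. The values ranged between populations in normal marrow from -0.48 to 1.46 for Ccl2, -0.66 to 0.87 for Ccl3 and -1.82 to 0.67 for Ccl4, and in metastatic marrow from -1.15 to 0.91 for Ccl2 and -1.51 to 0.13 for Cxcl2. With metastasis they ranged in general macrophages from -1.17 to 0.50 for Ccl3 and -0.33 to 0.47 for Ccl9, and in niche macrophages from -0.42 to 0.0469 for Ccl6 and -0.46 to 6.46 for Cxcl2. In the difference they ranged from -1.88 to 0.81 for Ccl2 and -1.20 to 5.22 for Cxcl12.

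Same-numbered libraries of different groups were not paired by the data, with correlations of their deviations from -0.0036 to 0.033. A replicate block in the 9 numbered libraries called 117 genes between populations in metastatic marrow and 3 with metastasis in general macrophages, and 0 ligands in either. In it Ccl2 between populations had -0.18 and Ccl4 with metastasis 0.57, both of changed sign, and Ccl4 between populations 1.41. At 3 counts, or 0.109 to 0.242 CPM, levels of Ccl2, Cxcl12 and Cxcl16 in the lowest libraries were at the limit of detection.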

Other observations

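Each library had between 5 and 8 of the 9 ligand genes over 3 counts. Replicate 3 of general macrophages and replicate 3 of niche macrophages, both from metastatic marrow, had 8, the most, and they were also the libraries with the most genes at 10 counts or more in their groups (12658 and 11606). Among all 20 chemokine ligand genes in the table these 2 libraries had 15 and 14 over 3 counts, against 7 to 10 in the other 10 libraries.

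Ccl25, a ligand of CCR9 that is best known from thymus and gut, was over 3 counts in all 12 libraries. It was at 18.7 ± 9.93 CPM in general macrophages of normal marrow and 5.24 ± 3.32 CPM in those of metastatic marrow, in groups that did not overlap (SD, n = 3 each), with a log2 fold change of -1.83 ± 1.67 (SE; adjusted p = 1 by edgeR). Ccl17 was at 19.0 CPM in niche library C from normal marrow and at or under 3 counts in the other 11 libraries.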
